A study of Mus musculus with 20 samples.

Results

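Oxymetholone, a synthetic anabolic androgen that has long been used to treat the anaemia of bone marrow failure, was fed to wild-type mice, and the transcripts of their marrow KSL cells were compared with those of mice on placebo chow. KSL cells carry cKit and Sca-1 and lack the lineage antigens of mature blood cells, a gate that holds the blood-forming stem cells together with a larger number of multipotent progenitors. The 6 libraries described here, of 20 in the series, are 3 pairs of 1 oxymetholone and 1 placebo library. Per the design text of the series, the libraries of a pair were sorted at the same flow cytometer setting.

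All 6 libraries came from male wild-type mice of the 129S4 background aged 4 months, and each was a pool of 5 mice. The oxymetholone mice had eaten chow with 300 mg of the steroid per kg of diet for 3 months from weaning, and the placebo mice the same chow without it. The remaining libraries were KSL cells of Fancd2-/- mice on either diet, wild-type erythroblasts on either diet and placebo whole marrow. Of these, only the 6 KSL libraries of Fancd2-/- mice have levels or changes given below. Those mice lack a central protein of the Fanconi anaemia pathway of DNA crosslink repair. A pool averages its animals, so the spread between mice was not measured.

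Stem cells within the KSL gate are mostly out of cycle, and most of the RNA of such a sort comes from progenitors that divide often. A progenitor that turns towards the granulocyte and monocyte lineages switches on the enzymes of the azurophil granule, myeloperoxidase first among them, and gives up the transcripts that mark the stem cell. Interferons, by contrast, induce a broad set of defence genes in these cells and can drive resting stem cells into division. Steroid hormones act through nuclear receptors that bind DNA and regulate their target genes.

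Between 10.8 and 121.3 M reads per library fell on the 20377 gene symbols kept, and the 2 libraries of pair 2 were the deepest. Kit, the receptor that defines the gate, lay between 598 and 806 CPM (counts per 1 M reads after TMM scaling), Ptprc, the pan-leukocyte antigen CD45, between 207 and 263 CPM, and Cd34 between 1220 and 1380 CPM. Of the lineage antigens, Cd3e was at 0 in all 6 libraries and Itgam at or below 8.4 CPM. With all 12 KSL libraries scaled together, Fancd2 was at 16.6 to 23.4 CPM in the wild-type and at 6.63 to 8.79 CPM in the Fancd2-/- libraries. Levels of wild-type libraries elsewhere are scaled over those 6 alone.

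Within the pairs, 1 gene of 12999 tested passed the edgeR test at an adjusted p under 0.05, which is 0.00769% of the genes. That gene was Ctsg, which encodes cathepsin G, a protease of the azurophil granule, and it was higher with oxymetholone. At an unadjusted p under 0.05 there were 384 genes higher (2.95%) and 573 lower (4.41%). Across all genes tested, 13.6% were higher in 3 of 3 pairs and 15.9% were lower in 3 of 3. In 3.5% every oxymetholone library lay above every placebo library, and in 5.02% every one lay below. These shares are the background for the counts that follow, in which a gene is said to be higher or lower in the pairs without having passed the test unless that is stated. In bulk RNA, fewer cells of a type and less RNA per cell cannot be told apart.

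Ctsg stood at 52.3, 72.6 and 45.1 CPM with oxymetholone in pairs 1 to 3 and at 32.1, 35.9 and 21.8 CPM with placebo. The groups did not overlap, and the rise was of like size in each pair, at log2 0.70, 1.01 and 1.05. The fitted change was log2 0.92 ± 0.10 (SE, n = 3 pairs, adjusted p = 0.0311). Ctsg lies on the minus strand of mouse chromosome 14 at 56718718 to 56721411 (mm9, RefSeq transcript NM_007800). Leaving out any single pair left Ctsg past the threshold, but the fit over all 12 KSL libraries gave an adjusted p of 0.0565.

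Mpo, which encodes myeloperoxidase, was the most abundant of the granule enzymes, at 1390, 1680 and 1380 CPM with oxymetholone and 976, 1210 and 960 CPM with placebo. Its change was nearly the same in every pair, at log2 0.51, 0.48 and 0.53, with a fitted value of 0.51 ± 0.07 and an adjusted p of 0.0663. Mpo lies at 87607286 to 87617914 on the plus strand of chromosome 11 (mm9, NM_010824). Elane, neutrophil elastase, was low throughout, at 2.42, 1.68 and 2.28 CPM against 1.72, 0.958 and 1.55 CPM, and was higher in 3 of 3 pairs. Prtn3, proteinase 3, showed no common direction, being higher only in pair 3 (101 against 61.3 CPM).

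**Figure D1:**
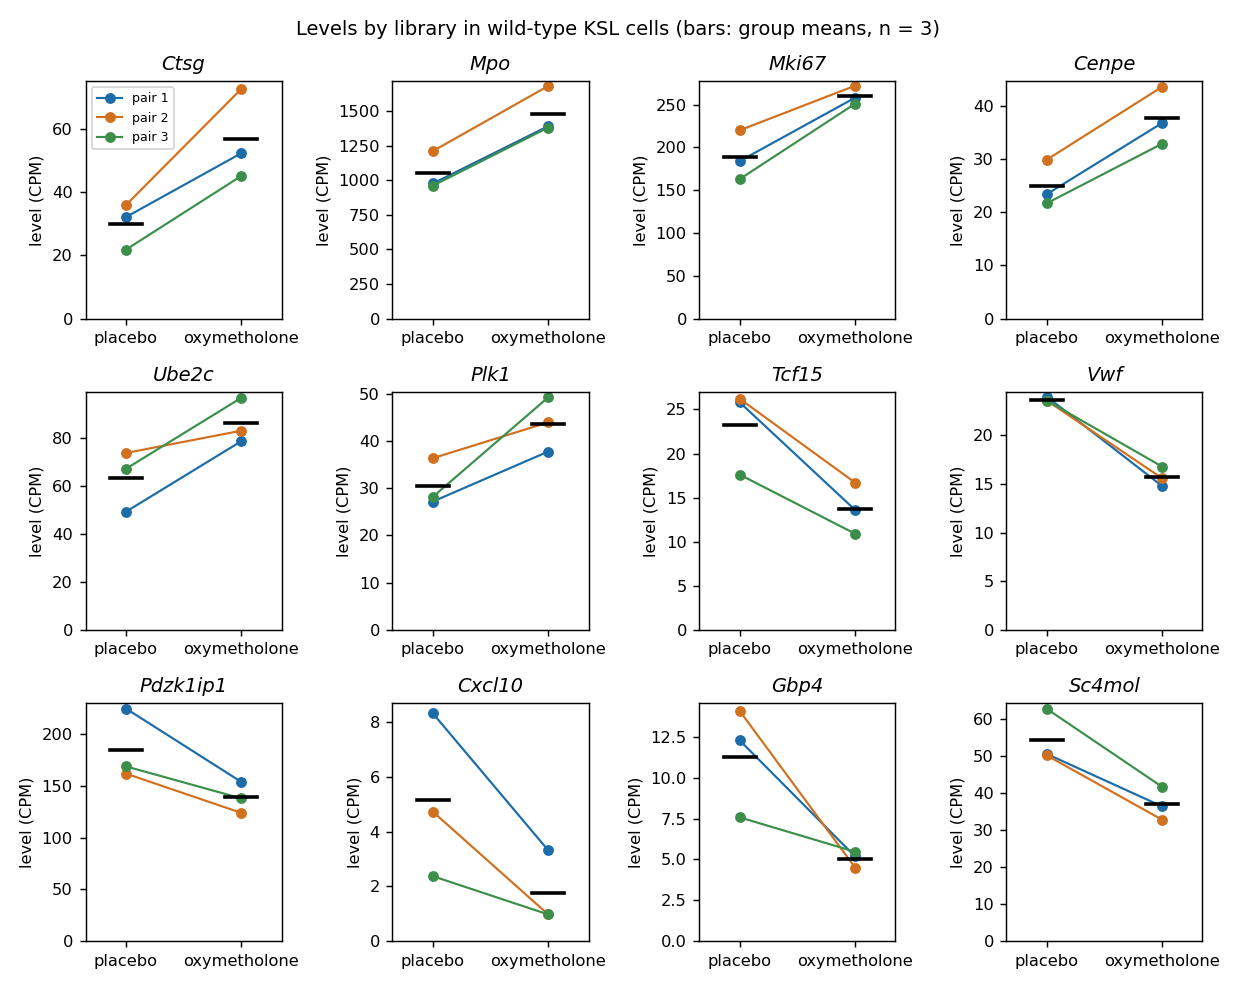
Levels in CPM (linear axis from 0) of 12 genes in the 6 wild-type KSL libraries, with a line joining the placebo and oxymetholone library of each pair and a black bar at each group's mean (n = 3). Ctsg, Mpo and the mitosis genes are higher with oxymetholone in each pair, and Tcf15, Vwf, Pdzk1ip1, Cxcl10, Gbp4 and Sc4mol are lower in each pair.

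The azurophil and early myeloid list had no common direction. Of its 14 members tested, 4 were higher in 3 of 3 pairs and 3 were lower, and its median was log2 0.19, against 0.00 over all genes tested. The pair medians were 0.05, -0.02 and 0.32, and without pair 3 the fitted median was 0.12. Lyz2, lysozyme, was lower in each pair (279, 210 and 246 CPM against 321, 243 and 268 CPM), as was Gstm1, a glutathione transferase of early myeloid cells (fitted log2 -0.25 ± 0.07). Cebpa, the factor that commits progenitors to the granulocyte line, was higher in pairs 2 and 3 only. Csf3r, the receptor for granulocyte colony-stimulating factor, was higher in pairs 1 and 3 only.

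Genes of the secondary and late neutrophil granules lay on the other side of 0. Of 11 tested, 6 were lower in 3 of 3 pairs and none was higher, with a median of log2 -0.75 (-0.45 without pair 2) and pair medians of -0.40, -0.61 and -0.88. Ngp, neutrophilic granule protein, was at 5.43, 3.42 and 5.54 CPM with oxymetholone and at 8.27, 8.55 and 14.6 CPM with placebo (fitted log2 -1.10 ± 0.19, adjusted p = 0.164). S100a9, a calcium-binding protein of mature neutrophils, was at 16.4, 7.21 and 12.5 CPM against 20.1, 21.5 and 21.7 CPM. These are low levels beside Mpo. The list summed to 158 to 187 CPM with oxymetholone and to 188 to 211 CPM with placebo, and the part of mature neutrophils in the sort was not tested.

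Single genes of other lists were also higher in 3 of 3 pairs, and 3 are given here that were chosen after their values were seen. Cd48, a surface antigen that stem cells lack and many progenitors carry, was at 208, 191 and 180 CPM with oxymetholone and 168, 164 and 134 CPM with placebo. Every oxymetholone library lay above every placebo library. Ccr2, a chemokine receptor of the monocyte line, was at 80.9, 88.2 and 80.9 CPM against 38.2, 76.1 and 47 CPM. Cdk6, the kinase that sets how fast a stem cell leaves rest, was higher by log2 0.44 ± 0.10, with overlapping groups. Adjusted p-values for these 3 genes lay between 0.34 and 0.375. They come from 3 different lists, in each of which most members were not higher in 3 of 3 pairs. Of 18 lymphoid-primed progenitor genes 4 were higher and none lower in 3 of 3 pairs, and of 18 monocyte, macrophage and dendritic cell genes 4 were higher and 2 lower.

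Myl10, a myosin light chain, and Rab44, a large Rab GTPase, were also among the higher genes of smallest p. Myl10 was at 55.6, 25.9 and 31.8 CPM with oxymetholone and at 34.7, 14.4 and 19.9 CPM with placebo (fitted log2 0.74 ± 0.10, adjusted p = 0.0663). Its groups overlapped because the pairs differed from each other by more than the diets did, yet all 3 pairs gave a similar ratio. Rab44 was at 14.5, 23.6 and 16.3 CPM against 9.2, 14.4 and 8.58 CPM (log2 0.76 ± 0.13, adjusted p = 0.149). Ap2b1, an adaptor subunit of clathrin coats, was higher by log2 0.39 ± 0.08. Mcpt8, a basophil protease, was at 5.58, 7.5 and 5.33 CPM against 3.56, 4 and 2.19 CPM. The mast cell proteases Tpsb2 and Cma1 were higher in 3 of 3 pairs at levels of 2.11 CPM or less. Prg2, an eosinophil granule protein, and Il4 were lower in 3 of 3 pairs at 3.65 CPM or less. The basophil, mast cell and eosinophil list as a whole had a median of log2 0.20 and pair medians of 0.40, 0.62 and -0.20. Its median was -0.00 without pair 2 and 0.38 without pair 3.

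Genes of mitosis made up the most uniform group. In 5 lists that cover mitotic kinases, the kinetochore, the spindle, mitotic chromosomes and cytokinesis, 111 of 112 genes tested had a fitted change above 0, and 86 were higher in 3 of 3 pairs. None was lower in 3 of 3. For 46 of them every oxymetholone library lay above every placebo library, and 71 had an unadjusted p under 0.05. None passed at an adjusted p under 0.05, and the smallest adjusted p among them was 0.12. The median change was log2 0.27, against 0.00 over all genes tested, with pair medians of 0.46, 0.10 and 0.26. Without pair 1 there were 100 members above 0 and a median of 0.18, without pair 2 110 and 0.35, and without pair 3 108 and 0.28.

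In the list of mitotic cyclins, kinases and their regulators, all 20 genes were above 0 and 16 were higher in 3 of 3 pairs. Plk1, the kinase that matures the spindle poles, was at 37.8, 44 and 49.3 CPM with oxymetholone and 27.2, 36.4 and 28.2 CPM with placebo (log2 0.50 ± 0.11, adjusted p = 0.34). Nek2, which separates the centrosomes, was at 28.8, 28.1 and 31.2 CPM against 16.8, 20.8 and 22.6 CPM. Groups were apart for both genes. Ccnb2, cyclin B2, was at 143, 138 and 148 CPM against 98.6, 122 and 119 CPM. Cdk1, the kinase that cyclin B activates, differed less, by log2 0.22 ± 0.08. Aurka and Aurkb, the Aurora kinases of the spindle pole and the centromere, were at log2 0.25 ± 0.09 and 0.27 ± 0.09.

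At the kinetochore, the protein plate that ties chromosomes to the spindle, 33 of 34 genes were above 0 and 20 were higher in 3 of 3 pairs. Cenpe, a kinetochore motor, had the smallest p of all the mitosis genes. It was at 36.8, 43.6 and 32.9 CPM with oxymetholone and at 23.4, 29.9 and 21.7 CPM with placebo (log2 0.60 ± 0.10, adjusted p = 0.12). Cenpf, a large protein of the same plate, was at 67.3, 64 and 69.2 CPM against 41.3, 52.7 and 41.7 CPM (log2 0.56 ± 0.11). In both genes the groups were apart. Bub1, a checkpoint kinase, was higher in each pair but by little in pair 2, at 31.6 against 31.1 CPM.

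In the spindle list 25 of 25 genes were above 0 and 23 were higher in 3 of 3 pairs. Tpx2, which activates Aurora A on the spindle, was at 156, 156 and 166 CPM with oxymetholone and at 109, 131 and 133 CPM with placebo. Kif2c, a kinesin that takes microtubules apart at the centromere, was at 44, 48.3 and 53.4 CPM against 33.6, 40.2 and 36.3 CPM. Kif11, the motor that pushes the spindle poles apart, was at 107, 102 and 118 CPM against 60.5, 101 and 93.5 CPM, so that most of its difference came from pair 1. Of the 15 genes of mitotic exit and cytokinesis, all 15 were above 0 and 14 were higher in 3 of 3 pairs. They include Ube2c, the ubiquitin-conjugating partner of the anaphase-promoting complex, at 78.6, 83 and 96.7 CPM against 49.2, 73.7 and 67.1 CPM.

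Among genes of the mitotic chromosome, 18 of 18 were above 0 and 13 were higher in 3 of 3 pairs. Mki67, the proliferation marker Ki-67 that coats mitotic chromosomes, was at 258, 272 and 251 CPM with oxymetholone and at 184, 220 and 163 CPM with placebo (log2 0.47 ± 0.08, adjusted p = 0.158). Top2a, the topoisomerase that untangles sister chromatids, was the most abundant named here, at 517, 478 and 518 CPM against 363, 451 and 424 CPM. Lmnb1, which encodes the nuclear lamina protein lamin B1, was at 116, 100 and 111 CPM against 77.4, 75.6 and 94.1 CPM. All 3 genes had groups that did not overlap. Placebo library 1 was the lowest of the 6 for Top2a, Kif11 and Plk1, and pair 1 gave the largest mitosis median. Libraries also differed in how their levels depended on transcript length, and with length and GC trends removed the pair medians were 0.36, 0.13 and 0.27.

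**Figure D2:**
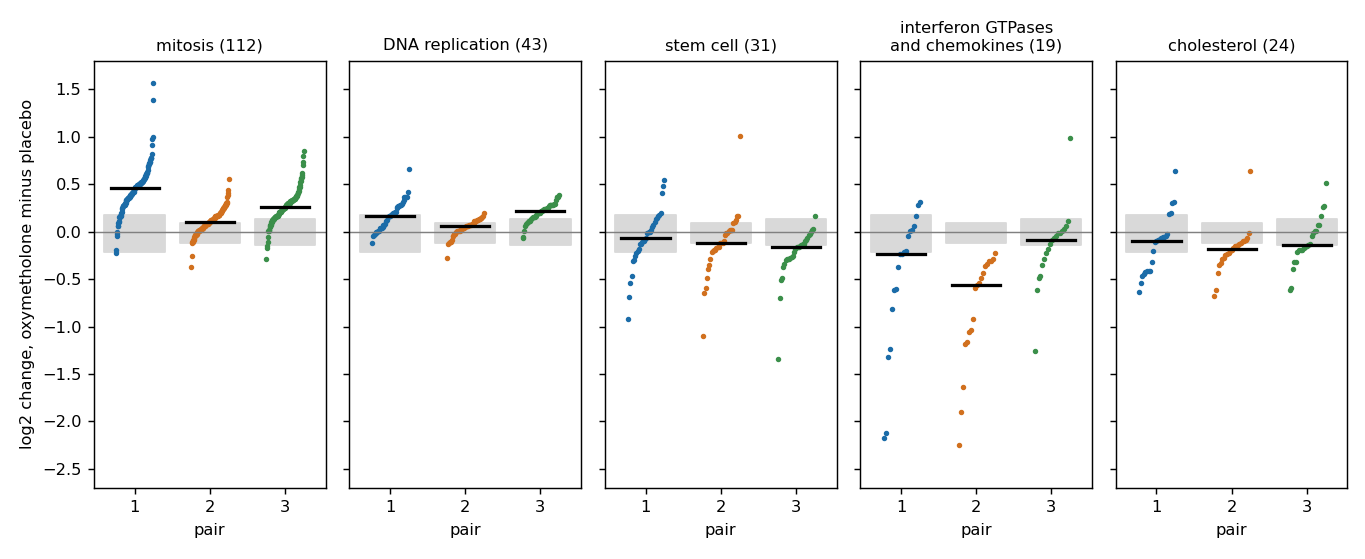
Log2 change (oxymetholone minus placebo) of every tested member of 5 gene groups in each of the 3 pairs, with dots for genes, black bars for medians and grey boxes for the middle range, from the lower to the upper quartile, of all 12999 genes. The mitosis medians of 0.46, 0.10 and 0.26 lie above the upper quartiles of all genes (0.18, 0.09 and 0.13), and the interferon GTPase and chemokine medians of -0.24 and -0.56 in pairs 1 and 2 lie below the lower quartiles (-0.21 and -0.12).

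Transcription of many mitosis genes is held back in resting cells through a short promoter element, the CHR, which binds the DREAM complex and, in dividing cells, activators such as B-MYB. The letters TTTGAA, on either strand and anywhere in the 300 bases from 250 before to 50 after a RefSeq start site (GRCm38.p6), were found for 57 of 93 mitosis genes with a promoter in the table (61.3%). They were found for 14.5% of all tested genes with one and in 17.9% of all promoters of that length. CCAAT, which often lies near a CHR, was in 69.9% of mitosis genes and 42.6% of tested genes. It was also in 16 of 17 cholesterol genes with a promoter (94.1%), a list described below that was mostly lower. The shares count list members whatever their change. The 250 bases before the start are printed for 3 genes that were higher in 3 of 3 pairs. They were picked by p among genes with a match in those bases, shown in capitals. Cenpe, Cenpf, Nek2 and Tpx2, of smaller p than Ube2c and Kif2c, had no listed promoter with such a match. The first listed start with a match was taken, which need not be the gene's main start. Mki67 holds 2 matches at chr7:135716380-135716629 on the minus strand, Ube2c 1 at chr2:164769679-164769928 on the plus strand and Kif2c 1 at chr4:117178773-117179022 on the minus strand. A match is a run of letters and not a measured binding site.
Mki67: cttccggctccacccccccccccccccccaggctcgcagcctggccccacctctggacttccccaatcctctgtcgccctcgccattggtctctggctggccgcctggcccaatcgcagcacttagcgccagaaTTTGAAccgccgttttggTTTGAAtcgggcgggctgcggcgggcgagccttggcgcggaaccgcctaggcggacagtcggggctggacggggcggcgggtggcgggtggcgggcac
Ube2c: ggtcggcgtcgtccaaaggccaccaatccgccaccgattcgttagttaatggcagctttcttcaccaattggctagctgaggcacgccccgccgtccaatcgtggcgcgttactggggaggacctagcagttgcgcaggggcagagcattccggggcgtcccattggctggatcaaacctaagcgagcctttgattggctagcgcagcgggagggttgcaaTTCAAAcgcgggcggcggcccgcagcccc
Kif2c: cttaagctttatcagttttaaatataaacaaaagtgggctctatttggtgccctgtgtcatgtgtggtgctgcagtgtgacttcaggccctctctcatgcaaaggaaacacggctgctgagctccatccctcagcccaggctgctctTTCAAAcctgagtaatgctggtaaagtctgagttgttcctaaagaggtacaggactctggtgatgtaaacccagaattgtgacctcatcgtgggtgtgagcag

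Genes of DNA replication were higher by a smaller margin. Of 43 tested, 41 had a fitted change above 0, 26 were higher in 3 of 3 pairs and none was lower in 3 of 3. The median was log2 0.13, with pair medians of 0.17, 0.06 and 0.22. It was 0.12 without pair 1, 0.20 without pair 2 and 0.11 without pair 3. Members above 0 with an unadjusted edgeR p under 0.05 numbered 12, and 1 without pair 3. In pairs 1 and 2 the medians lay below the upper quartiles of all genes (0.18 and 0.09). Mcm2 and Mcm6, subunits of the replicative helicase, were at 363, 393 and 401 CPM against 335, 343 and 330 CPM and at 830, 714 and 799 CPM against 741, 647 and 696 CPM. Pcna, the sliding clamp of the polymerases, was at 145, 124 and 135 CPM against 113, 121 and 114 CPM. Pold1, the catalytic subunit of polymerase delta, was higher by log2 0.25 ± 0.08 and Dnmt1, which copies DNA methylation behind the fork, by 0.23 ± 0.07. Only Mcm2 and Pcna of these 5 had groups that did not overlap.

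Genes that act before S phase showed little. In the list of G1 cyclins, E2F factors and G1/S kinases, 7 of 20 were higher and 2 lower in 3 of 3 pairs, with a median of log2 0.07 (0.04 without pair 1 or without pair 3). Cdk2 and Ccne1, the kinase and cyclin that open S phase, were at log2 0.03 ± 0.07 and -0.01 ± 0.12. Myc was higher in each pair by a little (log2 0.13 ± 0.07) and Mycn was lower in each (-0.20 ± 0.09). The list of cycle inhibitors and quiescence genes had no common direction. Of 16 tested, 8 were above 0 and 8 below, 1 was higher and 3 were lower in 3 of 3 pairs, and the median was log2 0.00. Among them, Cdkn1c, p57, which is known for holding stem cells at rest, was lower. It was at 34, 37.9 and 34.8 CPM with oxymetholone and at 47.7, 47.6 and 45.5 CPM with placebo (log2 -0.40 ± 0.09, adjusted p = 0.36), with groups apart. Cdkn1b, p27, and Cdkn2c, p18, had no common direction.

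Linker histone genes of the replication-dependent clusters, Hist1h1b, Hist1h1d and Hist1h1e, were higher in 3 of 3 pairs, with Hist1h1d at 5.3, 3.95 and 2.22 CPM against 2.37, 2.09 and 2.1 CPM. Messages of this class mostly lack a poly(A) tail, and the libraries were made from poly(A)-selected RNA. Only 23 of 68 genes passed the filter on low counts. Of these, 8 were higher in 3 of 3 pairs and none was lower, but the pair 3 median was 0.01. Fanconi pathway genes, which act in crosslink repair and peak in S phase, had a median of log2 0.13, and 9 of 21 were higher in 3 of 3 pairs. Their pair medians were 0.11, 0.07 and 0.16, and with length and GC trends removed -0.03, 0.07 and 0.19. Brip1, a helicase, was at 33, 34.9 and 36.6 CPM against 22.1, 29.6 and 31.8 CPM, and Brca1 at 49.7, 48.1 and 53.6 CPM against 36.4, 45.5 and 41.5 CPM. Fancd2 itself was at 18.2, 20.2 and 23.7 CPM against 17, 18.6 and 22.7 CPM, a change of log2 0.10 ± 0.11.

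Some transcripts that mark the most primitive cells of the gate were lower in each pair, though none passed the test. Of 31 stem cell genes tested, 12 were lower in 3 of 3 pairs and 1 was higher, 26 had a fitted change below 0, and the median was log2 -0.07 with pair medians of -0.07, -0.12 and -0.16. Without pair 1 the median was -0.15, without pair 2 -0.13 and without pair 3 -0.04, with 19 members below 0. With length and GC trends removed the pair medians were -0.01, -0.1 and -0.18. The difference was concentrated in some members. Tcf15, a factor restricted within the gate to the most quiescent stem cells, was at 13.6, 16.7 and 10.9 CPM with oxymetholone and at 25.8, 26.2 and 17.6 CPM with placebo (log2 -0.76 ± 0.12, adjusted p = 0.12). Vwf, which marks platelet-biased stem cells, was at 14.8, 15.6 and 16.8 CPM against 24, 23.6 and 23.6 CPM (log2 -0.60 ± 0.11, adjusted p = 0.206). In both genes every oxymetholone library lay below every placebo library. Tcf15 was lower by log2 -0.67 to -0.81 under the other 12 settings tried.

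Procr, the stem cell antigen EPCR, was at 167, 131 and 139 CPM with oxymetholone and 206, 167 and 170 CPM with placebo. Pdzk1ip1, a membrane protein gene used as a stem cell reporter, was at 154, 124 and 138 CPM against 225, 162 and 169 CPM (log2 -0.41 ± 0.08). Gfi1, a repressor that restrains stem cell division, was at 118, 132 and 121 CPM against 164, 151 and 137 CPM. Pdzk1ip1 and Gfi1 had groups that did not overlap, and Procr was lower within each pair, with oxymetholone 1 and placebo 2 at the same rounded level. Slamf1, Esam and Mllt3 were lower in 3 of 3 pairs by smaller amounts, between log2 -0.19 and -0.26. Mmrn1, a platelet gene shared with platelet-biased stem cells, was at 87.3, 60.5 and 83.4 CPM against 94.8, 89.2 and 125 CPM.

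Other factors that define the stem cell showed no such difference. Hlf was at 598, 629 and 657 CPM with oxymetholone and 571, 635 and 733 CPM with placebo, a change of log2 -0.03 ± 0.07. Meis1 was at log2 0.04 ± 0.08 and Mecom at -0.07 ± 0.10, and neither had one direction in 3 of 3 pairs. Kit was at log2 0.02 ± 0.07. Of the megakaryocyte and platelet list, 3 of 17 genes were lower in 3 of 3 pairs, Vwf and Mmrn1 among them, and 1 was higher.

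Genes induced by interferon were lower, above all in pair 2. Of 19 interferon-inducible GTPases and chemokines, all 19 had a fitted change below 0, 10 were lower in 3 of 3 pairs and 11 had an unadjusted p under 0.05, but none passed the test. The median was log2 -0.46, with pair medians of -0.24, -0.56 and -0.09. Of 32 antiviral genes 30 were below 0, but only 5 were lower in 3 of 3 pairs, close to the 15.9% of all genes. Pair medians of the antiviral list were 0.05, -0.46 and -0.07. Without pair 2 the count below 0 dropped to 13 of the antiviral list and 14 of the GTPase and chemokine list, and the median of both together went from log2 -0.20 to -0.01. The GTPase and chemokine median alone was -0.25 without pair 2.

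Cxcl10, a chemokine that draws T cells, was at 3.32, 0.97 and 0.969 CPM with oxymetholone and at 8.33, 4.73 and 2.37 CPM with placebo (log2 -1.72 ± 0.26, adjusted p = 0.12). Gbp4, a guanylate-binding protein of cell-autonomous defence, was at 5.18, 4.5 and 5.47 CPM against 12.3, 14.1 and 7.58 CPM (log2 -1.20 ± 0.21, adjusted p = 0.164). Gbp9, of the same family, was at 7.26, 4.65 and 6.37 CPM against 11.3, 10.8 and 10.7 CPM. These members were low in all libraries. Igtp, an immunity-related GTPase, was at 128, 99.4 and 114 CPM against 195, 207 and 120 CPM, and Gbp2 at 116, 87.2 and 107 CPM against 137, 127 and 131 CPM. Socs1, the feedback inhibitor of the interferon receptors, was at 39.5, 38.9 and 28.9 CPM against 50.9, 47.7 and 40.5 CPM. In Gbp4, Gbp9 and Gbp2 the groups were apart, while Igtp differed little in pair 3. Guanylate-binding and immunity-related GTPase genes include near-identical copies, so reads may be split among them and single members are uncertain.

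Slfn2, an interferon-induced gene known for keeping immune cells at rest, had the smallest p of all the genes that were lower. It was at 17.5, 12.6 and 14.4 CPM with oxymetholone and at 33.5, 22.6 and 21.6 CPM with placebo (log2 -0.80 ± 0.12, adjusted p = 0.114). Oasl2, an oligoadenylate synthetase-like gene, was at 29.7, 27.2 and 33.2 CPM against 46.4, 60.1 and 35.4 CPM. Groups were apart for both. Isg15 and Ifit1, classical targets of type I interferon, were lower in pair 2 but not in pair 1, at 9.28 against 8.86 CPM for Isg15 and 14.9 against 14.5 CPM for Ifit1. Shisa5, a p53-induced membrane protein gene outside these lists, was at 464, 506 and 517 CPM against 630, 657 and 624 CPM (log2 -0.36 ± 0.07, adjusted p = 0.212).

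Most genes of the interferon response carry an interferon-stimulated response element, which binds a complex that holds the factor IRF9. The core letters GAAANNGAA, on either strand of the same 300-base windows, were found for 27 of 34 interferon-induced genes with a promoter in the table (79.4%) and for 8.52% of all tested genes. Of all promoters, 8.56% held them. Here too list members were counted whatever their change. Cxcl10, at chr5:92348890-92349139 on the minus strand, and Gbp2, at chr3:142620413-142620662 on the plus strand (GRCm38.p6), are shown for the 250 bases before the start with the core in capitals. They were picked as the mitosis promoters were, and Slfn2 and Gbp4, of smaller p than Gbp2, had no listed promoter with a match there. Irf9 itself was lower in 3 of 3 pairs, by log2 -0.23 ± 0.08.
Cxcl10: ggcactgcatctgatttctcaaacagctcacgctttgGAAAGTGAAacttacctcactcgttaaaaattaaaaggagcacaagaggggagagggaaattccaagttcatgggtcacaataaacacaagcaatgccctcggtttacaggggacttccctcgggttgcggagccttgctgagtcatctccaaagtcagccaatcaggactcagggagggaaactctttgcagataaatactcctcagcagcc
Gbp2: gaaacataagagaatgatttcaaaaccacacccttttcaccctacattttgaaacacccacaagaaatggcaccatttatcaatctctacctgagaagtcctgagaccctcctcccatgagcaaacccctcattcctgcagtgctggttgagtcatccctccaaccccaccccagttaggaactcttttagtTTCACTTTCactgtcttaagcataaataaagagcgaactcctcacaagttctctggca

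Antigen presentation genes, which interferon also raises, were lower in part. Of 19 genes of MHC class I presentation, 7 were lower in 3 of 3 pairs, 1 was higher, and the median was log2 -0.15 (-0.05 without pair 2 and -0.26 without pair 3). H2-K1, a classical class I heavy chain, was at 3720, 3250 and 3500 CPM with oxymetholone and 4110, 4240 and 3650 CPM with placebo. Nlrc5, the activator of class I genes, was at 54.3, 55.8 and 59.5 CPM against 69.4, 94.1 and 64.5 CPM. Class I heavy chains are near-identical copies, and H2-K1 is uncertain for that reason. B2m, the shared light chain, was lower in pairs 2 and 3 and higher in pair 1.

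All 10 MHC class II genes had a fitted change below 0, but none was lower in 3 of 3 pairs, because pair 3 went the other way (pair medians -0.37, -0.98 and 0.10). The list median was log2 -0.46, and -0.17 without pair 2. Cd74, the invariant chain, was at 256, 213 and 303 CPM with oxymetholone and at 503, 661 and 264 CPM with placebo. Ly6a, which encodes the gate antigen Sca-1 and is itself raised by interferon, had the same order of pairs, with changes of log2 -0.26, -1.10 and 0.17. Its level was 188, 123 and 188 CPM with oxymetholone and 226, 263 and 167 CPM with placebo, an adjusted p of 0.79. Whether the lower Sca-1 message and the interferon-induced genes go together beyond these libraries was not tested.

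Cholesterol synthesis genes, which the factor SREBP-2 switches on when cell sterol is low, were lower by a small amount that was alike in the 3 pairs. Of 24 tested, 12 were lower in 3 of 3 pairs, 1 was higher and 21 had a fitted change below 0. None passed the test. The median was log2 -0.16, with pair medians of -0.10, -0.18 and -0.15. Sc4mol (now Msmo1), a sterol demethylating oxidase, was at 36.4, 32.8 and 41.7 CPM with oxymetholone and at 50.6, 50.2 and 62.8 CPM with placebo (log2 -0.56 ± 0.09, adjusted p = 0.12). Cyp51, a demethylase of an earlier step, was at 42, 40 and 46.5 CPM against 56.4, 50.9 and 57.9 CPM (log2 -0.36 ± 0.09). Fdft1, squalene synthase, was at 33.5, 33.6 and 33.6 CPM against 45.3, 37.4 and 44.1 CPM. In these 3 genes every oxymetholone library lay below every placebo library.

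Not all members of the pathway differed as much. Sqle, squalene epoxidase, was lower in 3 of 3 pairs at log2 -0.18 ± 0.08. Idi1, at 1.32 CPM or less, was the 1 member that was higher in 3 of 3. Apoe, the lipid carrier apolipoprotein E, was at 22.9, 20.8 and 18.3 CPM against 34.9, 33.2 and 24.9 CPM (log2 -0.58 ± 0.10, adjusted p = 0.166). Fatty acid synthesis genes had a median of log2 -0.01. The letters CACNCCAC, the core of a sterol response element, were searched in the same promoter windows. They were found for 2 of 17 cholesterol genes with a promoter (11.8%) and for 7.57% of tested genes.

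**Figure D3:**
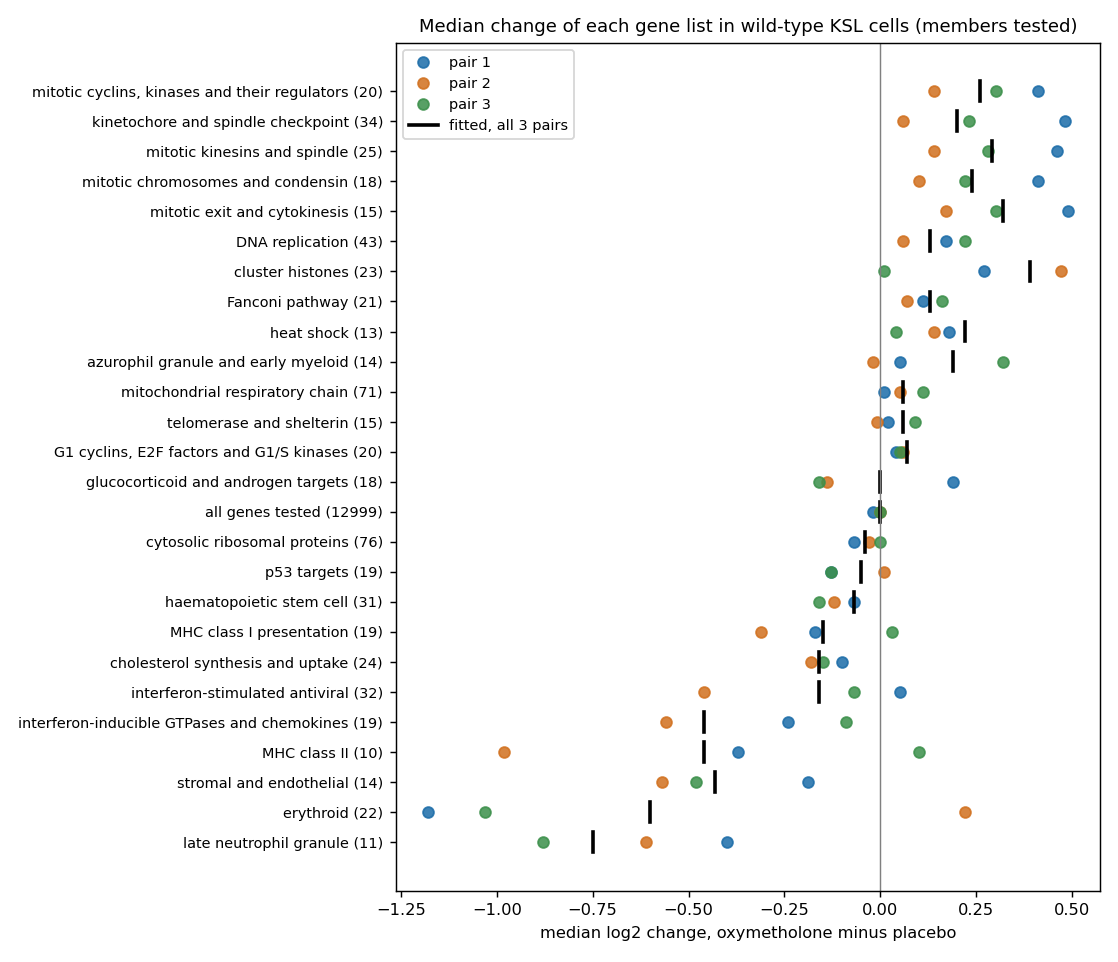
Median log2 change (oxymetholone minus placebo) of 25 gene lists and of all genes tested, with dots for the 3 pairs and a black bar for the median of the changes fitted over all pairs. The 5 mitosis lists have all 3 dots above 0, the cholesterol list all 3 below 0, and the MHC class II and erythroid lists have pairs on both sides of 0.

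Receptors and targets of steroids gave no common picture. Nr3c1, the glucocorticoid receptor, was at 138, 122 and 130 CPM with oxymetholone and 115, 134 and 147 CPM with placebo (log2 -0.01 ± 0.10). Of 16 receptors, steroid-converting enzymes and co-activators, 3 were higher in 3 of 3 pairs and none lower. Of 18 glucocorticoid and androgen targets, 1 was higher and 4 were lower in 3 of 3. Fkbp5, a target of steroid receptors, was at 143, 144 and 131 CPM against 127, 140 and 126 CPM, a change of log2 0.09 ± 0.07. None of these genes passed the test.

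Telomerase, which androgens are known to raise in other settings, showed no difference that could be told from the spread. Tert was at 5.4, 4.68 and 6.09 CPM with oxymetholone and at 4.85, 4.84 and 5.66 CPM with placebo (log2 0.06 ± 0.18). Of 15 telomerase and shelterin genes, none was higher and none lower in 3 of 3 pairs. Spp1, osteopontin, the niche protein named in the series title, was at 8.1, 6.69 and 9.07 CPM against 34.5, 5.87 and 6.76 CPM. It was lower in pair 1 alone, through the high level of placebo library 1.

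Heat shock genes were mostly higher, with 12 of 13 above 0, while the other stress and energy lists given here had medians near 0. Of 13 heat shock genes 6 were higher in 3 of 3 pairs and none was lower, with a median of log2 0.22 (0.12 without pair 1). Hsp90aa1, the inducible HSP90 chaperone, was at 219, 213 and 196 CPM against 178, 185 and 177 CPM. Respiratory chain genes had a median of log2 0.06 (0.03 without pair 3), with 18 of 71 higher and 1 lower in 3 of 3 pairs. Of 19 p53 targets, 6 were lower in 3 of 3 pairs and none was higher, but Cdkn1a, the best known of them, was higher in pairs 1 and 2. Trib3, a pseudokinase of the integrated stress response, was at 31.2, 23.5 and 26 CPM with oxymetholone and 45.7, 34.9 and 32.1 CPM with placebo (log2 -0.48 ± 0.10, adjusted p = 0.272). Ribosomal protein genes stood at a median of log2 -0.04.

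**Figure D4:**
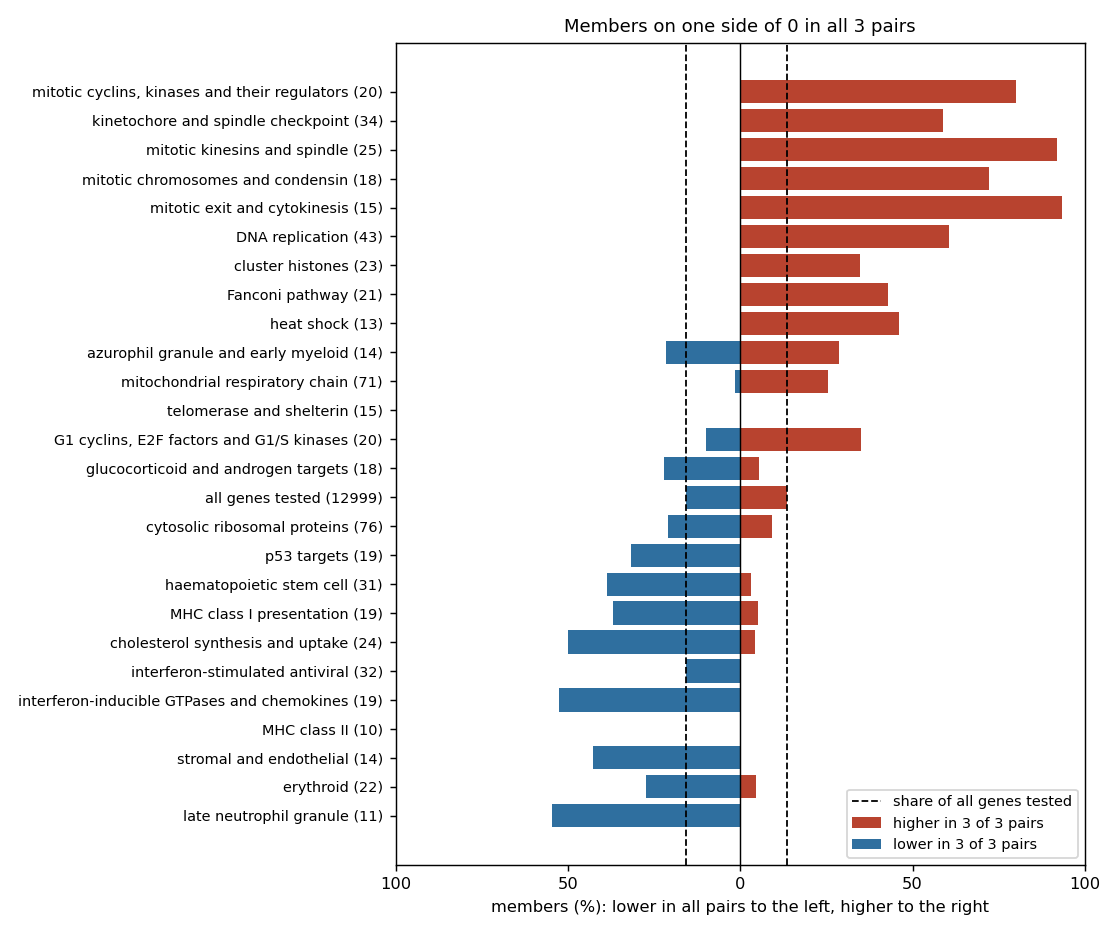
Share of each list's tested members (in %, count tested in brackets) that were higher in 3 of 3 pairs, to the right, or lower in 3 of 3, to the left, with dashed lines at the shares of all 12999 genes (13.6% and 15.9%). The mitosis and DNA replication bars reach far past the right line and the cholesterol, interferon GTPase and late neutrophil bars past the left one, while the antiviral bar ends at it.

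Changes of 1.5-fold or more in each of the 3 pairs were few, at 14 genes higher (0.108%) and 52 lower (0.4%). With a mean of at least 1 CPM there were 4 higher, namely Ctsg, Rab44, Myl10 and Mcpt8, and 19 lower. Those lower include Cxcl10, Gbp9, Tcf15 and Ngp, described above, and Hoxb8, a homeobox gene that supports progenitor self-renewal, at 1.02, 0.786 and 1.18 CPM against 2.29, 1.97 and 2.1 CPM. Unc45b, a myosin chaperone, was at 4.06, 3.34 and 3.32 CPM against 6.38, 7.72 and 5.66 CPM. Fn1, the matrix protein fibronectin, was at 1.3, 1.27 and 1.8 CPM against 3.22, 1.96 and 2.83 CPM. Cpe, carboxypeptidase E, was at 0.248, 0.131 and 0.415 CPM against 3.7, 0.702 and 0.913 CPM. All of these levels are low. The others were Fbln2, Beta-s, Boc, Chst7, Ephx2, Farp1, Fetub, Gm1027, Plekhg1, Rilp and Zbtb46, all under 3 CPM except Beta-s.

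Lists of other cell types, beyond neutrophils, did not all go the same way. Of 22 erythroid genes 6 were lower and 1 was higher in 3 of 3 pairs, with pair medians of log2 -1.18, 0.22 and -1.03. Their fitted median was -0.60, and -0.13 without pair 1, -1.06 without pair 2 and -0.36 without pair 3. The erythroid list summed to 1360, 1250 and 1270 CPM with oxymetholone and to 1330, 1190 and 1640 CPM with placebo. That sum was lower in pair 3 alone. Beta-s, an adult beta globin, was at 2.85, 2.48 and 4.02 CPM with oxymetholone and at 8.75, 4.84 and 38.3 CPM with placebo, the highest being placebo library 3. Globin copies share reads and are uncertain. Of 14 stromal and endothelial genes 6 were lower and none higher in 3 of 3 pairs (median log2 -0.43, and -0.17 without pair 2), and the list summed to 202 to 222 CPM against 229 to 243 CPM. Bgn, biglycan, made up much of it, at 53.3, 55.4 and 68 CPM against 79.6, 71.7 and 79.9 CPM. B cell genes summed to 100, 103 and 80.6 CPM against 124, 100 and 90.1 CPM. The T and NK cell sum was higher in each pair, at 252, 292 and 229 CPM against 241, 256 and 193 CPM. For monocyte, macrophage and dendritic cell genes the sum was higher in pairs 1 and 3, at 282, 269 and 261 CPM against 243, 282 and 188 CPM. The part of these cells in the changes described above was not tested.

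In Fancd2-/- KSL cells on the same diet the mitosis median was log2 -0.11, with pair medians of -0.02, -0.12 and -0.16, where wild-type pairs had 0.46, 0.10 and 0.26. Of the 112 mitosis genes, 8 were higher in 3 of 3 Fancd2-/- pairs (9.98% of all genes were) and 21 were lower in 3 of 3 (10.8% of all genes were). The difference between genotypes was not tested for the list as a whole. Tested gene by gene, the oxymetholone effect differed between genotypes in 0 of 13259 genes (0%) at an adjusted p under 0.05 by edgeR (smallest adjusted p = 0.953). At an unadjusted p under 0.05 it differed in 457 genes (3.45%), and 46 of the 112 mitosis genes were among them. DESeq2 called 1 gene, Ctsg. Ctsg differed by log2 0.02 ± 0.12 in the Fancd2-/- pairs, and the difference between genotypes was 0.90 ± 0.17 (edgeR adjusted p = 0.953, unadjusted p = 0.000142).

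Mitosis genes were not alike in this respect, and none passed the test of the difference. Kif2c, higher in each wild-type pair, was lower in each Fancd2-/- pair, by log2 -0.32, -0.31 and -0.39. Mki67 was higher in each Fancd2-/- pair too, by log2 0.44, 0.28 and 0.52, and its difference between genotypes was 0.07 ± 0.16. Cenpf was higher by log2 0.48, 0.43 and 0.57 (difference 0.08 ± 0.17), and Cenpe by 0.21, 0.49 and 0.09 (0.34 ± 0.18). Cenpe, Mki67 and Cenpf were the 3 mitosis genes of smallest p in wild-type cells. Tcf15 was lower in each wild-type pair and higher in each Fancd2-/- pair, by log2 0.30, 0.36 and 0.10. The stem cell list had a median of log2 0.16 in Fancd2-/- cells and of -0.07 in wild-type cells. Mpo had no common direction in the Fancd2-/- pairs, at log2 0.64, -0.94 and 1.08. Interferon GTPases and chemokines had a median of log2 -0.13 and cholesterol genes one of -0.05 in Fancd2-/- cells. The antiviral list had a median of log2 -0.21 in Fancd2-/- cells, with pair medians of -0.10, -0.19 and -0.19, and -0.16 in wild-type cells. Of its 32 genes, 11 were lower in 3 of 3 Fancd2-/- pairs (34.4%, against 10.8% of all genes) and 5 in 3 of 3 wild-type pairs. Placebo library 3 of the Fancd2-/- group stands apart, with Spp1 at 558 CPM, and without its pair edgeR again called 0 genes for the difference.

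**Figure D5:**
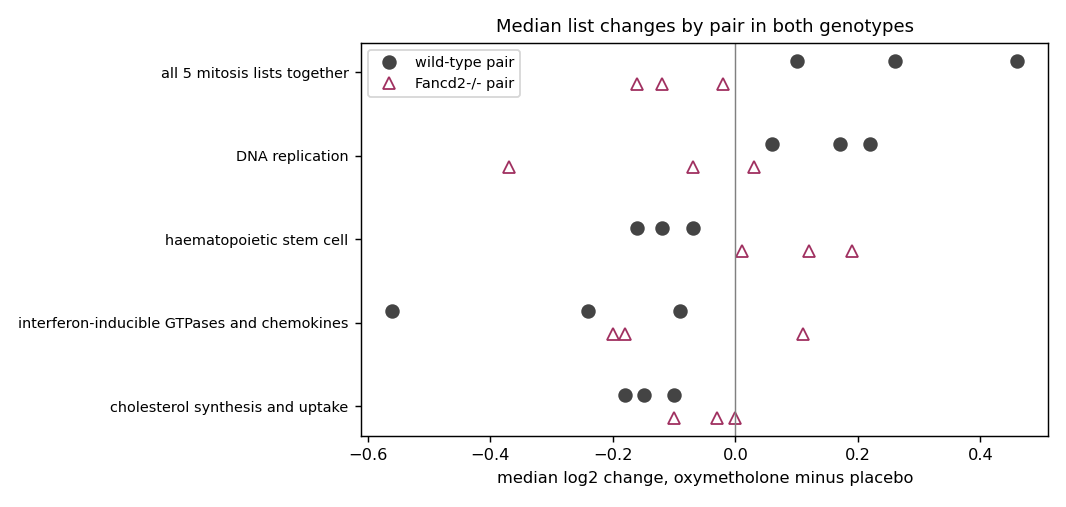
Median log2 change (oxymetholone minus placebo) of 5 gene groups in each of the 3 wild-type pairs (filled circles) and each of the 3 Fancd2-/- pairs (open triangles). Mitosis medians lie above 0 in the wild-type and below 0 in the Fancd2-/- pairs and stem cell medians the other way round, a difference in lists that was not tested.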

How the data were processed

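RNA of KSL cells sorted in 2 rounds, each library a pool of 5 mice, was sequenced from TruSeq libraries of poly(A)-selected RNA, per the labels' protocols. The authors deposited read counts for 26005 RefSeq transcripts in 20 libraries, after alignment with Bowtie to mm9, per the series' design text. The sources used here do not give tool versions, the strand of counting or the treatment of multiply matching reads. A second deposited matrix holds a score, counts scaled by the authors to a common total and rounded, which entered 1 alternative, a limma fit after adding 1 and taking log2.

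For each of 20377 symbols the transcript with the largest total over all 20 libraries of the series was kept. Counts were tested with edgeR 4.0.16 in R 4.3.3 (TMM, filterByExpr with a minimum count of 10, robust quasi-likelihood, Benjamini-Hochberg adjustment), with the pair as a block, on the 6 wild-type KSL libraries. Levels are TMM CPM computed here, pair changes use a prior count of 2, and errors are SE. The pairing comes from the design text, and the deviations of partner libraries from their group means correlated at 0.112, 0.297 and 0.168. Between libraries of different pairs the values were -0.247 to 0.107. The highest of those, oxymetholone library 1 with placebo library 3, was close to the 0.112 of pair 1. Deviations within a group cancel out, so positive values within pairs push those between pairs down. The contrast is therefore not a test of the pairing. The interaction with genotype used all 12 KSL libraries. The Fancd2-/- library named in the design text as a partner of pair 1 matched no sample label exactly and was used by its group. The script was tested on simulated counts.

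The gene lists, the genes and the fit were chosen with earlier results of these data known. An earlier fit over all 12 KSL libraries had given 0 calls for this comparison. The 6-library fit was preferred because a Fancd2-/- placebo library that stands apart enters the shared spread of the 12. Named genes were the 12 of smallest p in each direction among those with a mean of at least 1 CPM and the same sign in 3 of 3 pairs, those at 1.5-fold or more in each pair, and members of the lists. Alternatives were other normalisations, filters, tools (DESeq2 1.42.0, limma 3.58.1) and library sets. Starts in the deposited table were 1 lower than those of the mm9 annotation and were raised by 1. Promoters are RefSeq's of GRCm38.p6, used only for their letters and positions. Some genes are not reported here.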

Additional observations from a re-analysis of the deposited data

Results flagged for a closer look

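The difference between the genotypes in the following list medians was not tested as a list, and the gene-by-gene test of that difference called 0 genes by edgeR. For the 5 mitosis lists together, the median log2 change with oxymetholone was 0.27 in wild-type KSL cells, with all 3 pairs above 0 (0.46, 0.10 and 0.26). It was -0.11 in Fancd2-/- KSL cells, with all 3 pairs below 0 (-0.02, -0.12 and -0.16). Within these, the mitotic exit and cytokinesis list stood at 0.32 in wild-type cells (pairs 0.49, 0.17 and 0.30) and at -0.06 in Fancd2-/- cells (pairs -0.04, -0.26 and -0.06). The haematopoietic stem cell list went the other way, at -0.07 in wild-type cells (pairs -0.07, -0.12 and -0.16) and 0.16 in Fancd2-/- cells (pairs 0.01, 0.12 and 0.19). Several of these pair medians lie close to 0, and genes of a list are not independent of each other. With length and GC trends removed, the stem cell median of wild-type pair 1 was -0.01. Each mitosis list other than mitotic exit and cytokinesis had a Fancd2-/- pair median above 0.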

How the results depend on the processing

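The count of called genes, 1 of 12999, depended on the fit. It was 0 over all 12 KSL libraries (357 genes at an unadjusted p under 0.05), 0 by limma on the deposited scaled values (899) and 0 with no replicate block for the pairing (492, smallest adjusted p = 0.77). It was 15 with no low-count filter, 42 by DESeq2, 103 by limma voom with quality weights, 88 with length and GC trends removed, and 21 to 243 with 1 pair left out, the highest without pair 1. Ctsg was called under 9 of 12 alternatives and missed under the 3 that called 0. For the difference between genotypes the count was 0 with no replicate block and 1 by DESeq2. The 66 genes at 1.5-fold in each pair became 196 with no low-count filter and 17 at 2-fold. The cause of these shifts was not tested.

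Of 114 genes followed, 19 of 1362 values had the other sign, all in genes that the edgeR fit of the 3 pairs did not call. B2m was called without pair 1 (edgeR adjusted p = 0.00055). Leaving out 1 pair gave log2 -0.29 to 0.02 for B2m, -0.04 to 0.03 for Ccne1, -0.16 to 0.29 for Cdkn1b, -0.17 to 0.22 for Cdkn2c, -0.08 to 0.03 for Hlf, -0.47 to 0.06 for Isg15, -0.04 to 0.08 for Kit, -0.21 to 0.02 for Mecom, -0.03 to 0.09 for Meis1, -0.15 to 0.07 for Nr3c1, -0.04 to 0.32 for Prtn3 and -1.04 to 0.28 for Spp1. Voom gave -0.01 for Cdkn1b, -0.11 for Cdkn2c, -0.02 for Kit and -0.00 for Tert. Removing length and GC trends gave -0.00 for Kit and 0.00 for Ccne1. Of 576 list medians under alternatives, 552 moved by less than the SD of the 3 pair medians. That SD is wide where the pairs disagree, so this count cannot show that such lists are stable. The antiviral median, for example, went from log2 -0.16 to 0.03 without pair 2. Depth was lowest in pair 3 (14.4 and 10.8 M reads), which limits genes near 1 CPM.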

Other observations

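Oxymetholone library 1 stood above the other 5 for some genes that respond to stress and to glucocorticoids, which were picked out after their values were seen. Tsc22d3, a glucocorticoid-induced leucine zipper gene, was at 587 CPM there and at 235 to 422 CPM in the others. Cdkn1a, p21, was at 197 CPM there and at 47.6 to 87.8 CPM in the others, and Hspa5, the endoplasmic reticulum chaperone BiP, at 714 CPM against 436 to 537 CPM. Per1, a clock gene that glucocorticoids induce, was at 98.1 CPM there and at 53.2 to 71.9 CPM in the others. None of these genes was higher with oxymetholone at an adjusted p under 0.05 by edgeR. Immediate early genes summed to 797 CPM in that library, 647 and 696 CPM in placebo libraries 1 and 3, and 445 to 519 CPM in the remaining 3.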
